A study of Erysimum cheiri and Matthiola incana and Raphanus sativus with 44 samples.

Results

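Petals of stock (Matthiola incana), an ornamental of the Brassicaceae, were compared between flower form LP and the 2 forms DP and RB. The libraries were chosen by the form code in their titles, which gave 2 LP, 2 DP and 2 RB libraries, 6 of the 8 stock libraries and of the 44 libraries of a series on petals of several Brassicaceae species. The phenotype labels call the LP flowers modena, the DP flowers lavender and the RB flowers pink, and the labels spell out neither the form codes nor a cultivar, genotype or number of plants behind a library. All groups were petals taken from half-open flowers of plants raised in a greenhouse, untreated as far as the labels say, and the series describes its 2 libraries per form as biological replicates. RNA was sequenced as directional libraries of polyadenylated RNA, and the deposited values are FPKM, fragments scaled by transcript length and by the mapped fragments of the library, for 34133 Arabidopsis thaliana loci. A gene name below is therefore the name of the Arabidopsis locus to which stock reads were assigned, and the values of close copies in stock can be mixed or split. The 2 libraries of form W, labelled white, share 1 column heading in the files, so they are written as library a and library b. They entered the fit to estimate the spread, and their values stand beside some results with no comparison.

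Anthocyanins, the red to blue pigments of most petals, are made from phenylalanine. The general phenylpropanoid steps give coumaroyl-CoA, chalcone synthase (CHS) turns this into the first flavonoid, and CHI, F3H and F3PRIMEH shape the flavanone and dihydroflavonol skeletons. DFR and LDOX then make the coloured anthocyanidins, which are decorated with sugars and acyl groups and carried into the vacuole. Coumaroyl-CoA also feeds the sinapate and lignin branch, which competes with flavonoids for the same substrate. In Arabidopsis, complexes of MYB, bHLH and WD40 proteins switch on the late pigment genes.

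At a typical locus 1 read stood for 2.93 and 3.23 FPKM in LP, for 4.42 and 2.67 FPKM in DP and for 5.73 and 6.31 FPKM in RB, so the libraries are shallow and RB is the shallowest of the 3 forms. A value of 0 in LP therefore allows up to 3 reads, 8.78 and 9.70 FPKM at a typical locus, counting error only. In DP a 0 allows up to 13.3 and 8.02 FPKM, and in RB up to 17.2 and 18.9. Between 6298 and 9374 loci were above 0 in these 6 libraries. The chi-square per degree of freedom between the 2 libraries of a form, over recovered reads, was 8.08 in LP, 1.17 in DP and 1.45 in RB, while their correlation of log2 values across loci was 0.88 in LP, 0.88 in DP and 0.84 in RB. One locus took 30.0% of the FPKM of DP library 1, and 35.8% and 50.7% in the W libraries, against at most 6.34% for the highest locus in the other 5 libraries. Petal identity genes ran from high levels to 0. PI, a B-class MADS-box gene, had 1144 and 1029.8 FPKM in LP, 1067 and 916 in DP and 1091 and 1137 in RB. AP3, its partner, had 826 and 679 FPKM in LP, 344 and 447 in DP and 758 and 736 in RB. AP1 and SEP3 were also above 300 FPKM in each library, SEP1 had 46.6 and 55.5 FPKM in LP, 38.0 and 39.0 in DP and 21.2 and 15.5 in RB, and SEP2 and SEP4 were below 7 FPKM in each library and at 0 in 4 of the 6. None of the 9 tested petal identity genes was called different in LP by limma (lowest adjusted p = 0.485). Markers of carpel, ovule and tapetum were near 0. The 7 carpel and ovule genes summed to 0 FPKM in both LP libraries and to 0 to 9.51 in DP and RB. In all 8 libraries 6 of the 7 were at 0. Of the 9 tapetum genes 8 were at 0 in all 8 libraries, and the summed level was 0 in LP and DP and 0 and 9.86 FPKM in RB. The pollen gene VGD1 was listed at 0 in LP and DP and had 16.8 and 9.25 FPKM in RB, and the summed pollen list, of which 3 of 7 genes were at 0 throughout, was 59.1 to 92.9 FPKM in LP, 56.9 to 89.8 in DP and 118 to 167 in RB. TUA1 made up most of the pollen sum, with 89.2 and 59.1 FPKM in LP, 89.8 and 56.9 in DP and 93.5 and 141 in RB. The part of pollen in the differences from RB was not tested.

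Across the 13088 loci with a form mean of at least 1 FPKM, 34 differed between LP and the mean of DP and RB at an adjusted p under 0.05, which is 0.26% of the loci tested. Of these, 12 rose in LP (0.0917%) and 22 fell (0.168%). Against DP alone 12 rose (0.0917%) and 18 fell (0.138%), 30 in all (0.229%), and against RB alone 67 rose (0.512%) and 28 fell (0.214%), 95 in all (0.726%). Differences below are on the log2(FPKM + 1) scale, LP minus the mean of DP and RB unless another pair is named, with the standard error of the limma fit (2 LP against 4 DP and RB libraries). The median difference over all tested loci was 0.05. The split of 12 higher and 22 lower became 1 and 3 after rescaling to a common total without organelle loci, 9 and 32 with voom on recovered reads, and 18 and 14 with voom and the depth from the read steps. The common total still counted AT3G08520, the locus that took 30.0% of the FPKM of DP library 1 and 35.8% and 50.7% in the W libraries. How far this locus moved the calls was not tested. The number of calls also moved when a single library was left out. Without RB library 1, RB library 2 or W library b no locus was called by limma, although 1614, 1582 and 1438 loci had an unadjusted p under 0.05, and without LP library 1, LP library 2, DP library 1 or DP library 2 between 459 and 937 were called. All 34 kept their sign in each of these leave-one-out fits. The calls against 1 form moved as much: LP against DP had 0 calls without RB library 1, RB library 2 or W library b and 817 without DP library 1, and LP against RB had 2 without W library b, 6 without RB library 2 and 559 without LP library 1.

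**Figure D1:**
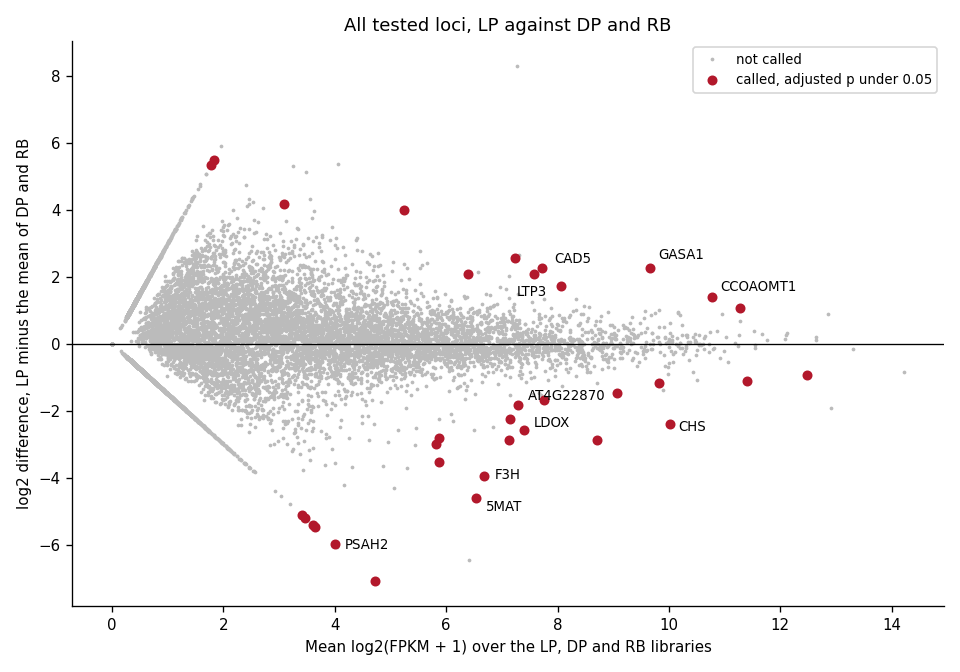
Each dot is 1 of the 13088 tested loci, placed by its mean log2(FPKM + 1) over the LP, DP and RB libraries (x axis) and by its log2 difference, LP minus the mean of DP and RB (y axis). The 34 called loci are in red, and the 10 of them that stand in the gene lists are named: 4 lie above 0 and 6 below it.

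Of the first steps of the flavonoid pathway, CHS and F3H fell in LP against DP and RB. Of the 5 early flavonoid genes 4 were tested, 2 of them fell, none rose, and their median difference was -3.17 beside 0.05 over all loci. CHS (AT5G13930), chalcone synthase, had 298 and 395 FPKM in LP, 1896 and 1926 in DP and 1383 and 2131 in RB. LP overlaps neither form and stood at 18.9% of the mean of DP and RB (log2 difference -2.40 ± 0.22 SE, limma adjusted p = 0.0076). F3H (AT3G51240), flavanone 3-hydroxylase, had 14.9 and 16.5 FPKM in LP, 305 and 216 in DP and 199 and 323 in RB. Both LP libraries were far below the lowest DP or RB library, at 6.03% of their mean, and the log2 difference was -3.94 ± 0.45 SE (adjusted p = 0.0203). Behind these F3H values stood 2 recovered reads in each LP library, 27 and 32 in DP and 14 and 20 in RB, so the LP level is known only roughly. CHIL (AT5G05270), a chalcone isomerase-like protein that in Arabidopsis enhances flavonoid production, had 18.0 and 0 FPKM in LP, 372 and 382 in DP and 465 and 311 in RB. LP lay below all 4 other libraries, but 1 of its libraries was at 0 and the other was not, and the difference of -6.45 ± 1.01 SE missed the threshold (adjusted p = 0.0766). Over the 8 fits that each left out a library the difference ran from -8.57 to -4.32. CHI, the chalcone isomerase itself, was listed at 0 in all 8 stock libraries.

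F3PRIMEH (AT5G07990), flavonoid 3′-hydroxylase, which adds the second hydroxyl group of the B ring, did not follow CHS and F3H. It had 311 and 242 FPKM in LP, 243 and 212 in DP and 129.6 and 148 in RB. The LP and DP values overlap, the RB values are the lowest, and the difference of 0.63 ± 0.20 SE was not called (adjusted p = 0.415). Against each form alone, CHS and F3H fell in LP with similar sizes. For CHS the difference was -2.47 ± 0.26 SE from DP (adjusted p = 0.019) and -2.32 ± 0.26 SE from RB (adjusted p = 0.0143). For F3H it was -3.95 ± 0.52 SE from DP (adjusted p = 0.0394) and -3.93 ± 0.52 SE from RB (adjusted p = 0.0228). These comparisons share the LP libraries. The W libraries had 1799 and 1281 FPKM of CHS, 145 and 48.5 of F3H and 103 and 41.1 of CHIL.

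Of the 12 late anthocyanin genes 10 were tested, 3 fell in LP, none rose, and the median difference was -0.89. LDOX (AT4G22880), leucoanthocyanidin dioxygenase, which makes the coloured anthocyanidins, had 61.6 and 41.0 FPKM in LP, 306 and 305 in DP and 326 and 285 in RB. The DP and RB libraries overlap each other and the LP libraries lie far below them, at 16.8% of their mean (log2 difference -2.58 ± 0.28 SE, adjusted p = 0.0158). AT4G22870, the locus listed beside LDOX because its identifier is the neighbouring one, had 62.5 and 69.1 FPKM in LP, 229 and 157 in DP and 328 and 270.3 in RB. LP lay below both forms, RB was the highest, and the difference was -1.84 ± 0.25 SE (adjusted p = 0.0335). It was called from RB (-2.16, adjusted p = 0.0228) and not from DP (-1.51, adjusted p = 0.132), and DP against RB was -0.65 (adjusted p = 0.385). Only 3 recovered reads stood behind it in each LP library. How reads were assigned between LDOX and this locus is not given in the sources used here. 5MAT (AT3G29590), in Arabidopsis the malonyltransferase that adds a malonyl group to the glucose at position 5 of anthocyanins, had 22.5 and 4.15 FPKM in LP, 295 and 255 in DP and 237 and 284 in RB. The LP libraries differed widely from each other and both were far below the others, at 4.98% of their mean (log2 difference -4.60 ± 0.55 SE, adjusted p = 0.0218).

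DFR (AT5G42800), dihydroflavonol 4-reductase, had 48.5 and 49.5 FPKM in LP, 95.9 and 118 in DP and 95.6 and 72.5 in RB. LP was below all 4 other libraries with close replicates, yet the difference of -0.93 ± 0.30 SE was not called (adjusted p = 0.415). UGT78D2, the flavonoid 3-O-glucosyltransferase, had 307 and 216 FPKM in LP, 409 and 392 in DP and 449.7 and 663 in RB, again below all 4 and again not called (-0.86 ± 0.21 SE, adjusted p = 0.245). Of the 10 tested late genes, 5 lay below all 4 other libraries, beside 3.5% of all loci. The other late genes were near each other in the 3 forms or too low to compare. TT19 (AT5G17220), a glutathione S-transferase that carries anthocyanins towards the vacuole, was the most abundant late transcript, at 3074 and 2487 FPKM in LP, 2743 and 2671 in DP and 2014 and 1977 in RB. LP and DP overlap, and the difference of 0.25 ± 0.10 SE was not called (adjusted p = 0.563). UGT79B1, the xylosyltransferase of Arabidopsis anthocyanins, had 167 and 92.4 FPKM in LP, 136 and 106 in DP and 119 and 108 in RB, with all forms overlapping (0.09 ± 0.29 SE, adjusted p = 0.957). UGT75C1, the 5-O-glucosyltransferase whose sugar 5MAT acylates, was low in all 3 forms, with 0 and 9.88 FPKM in LP, 13.5 and 8.15 in DP and 5.86 and 25.8 in RB.

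**Figure D2:**
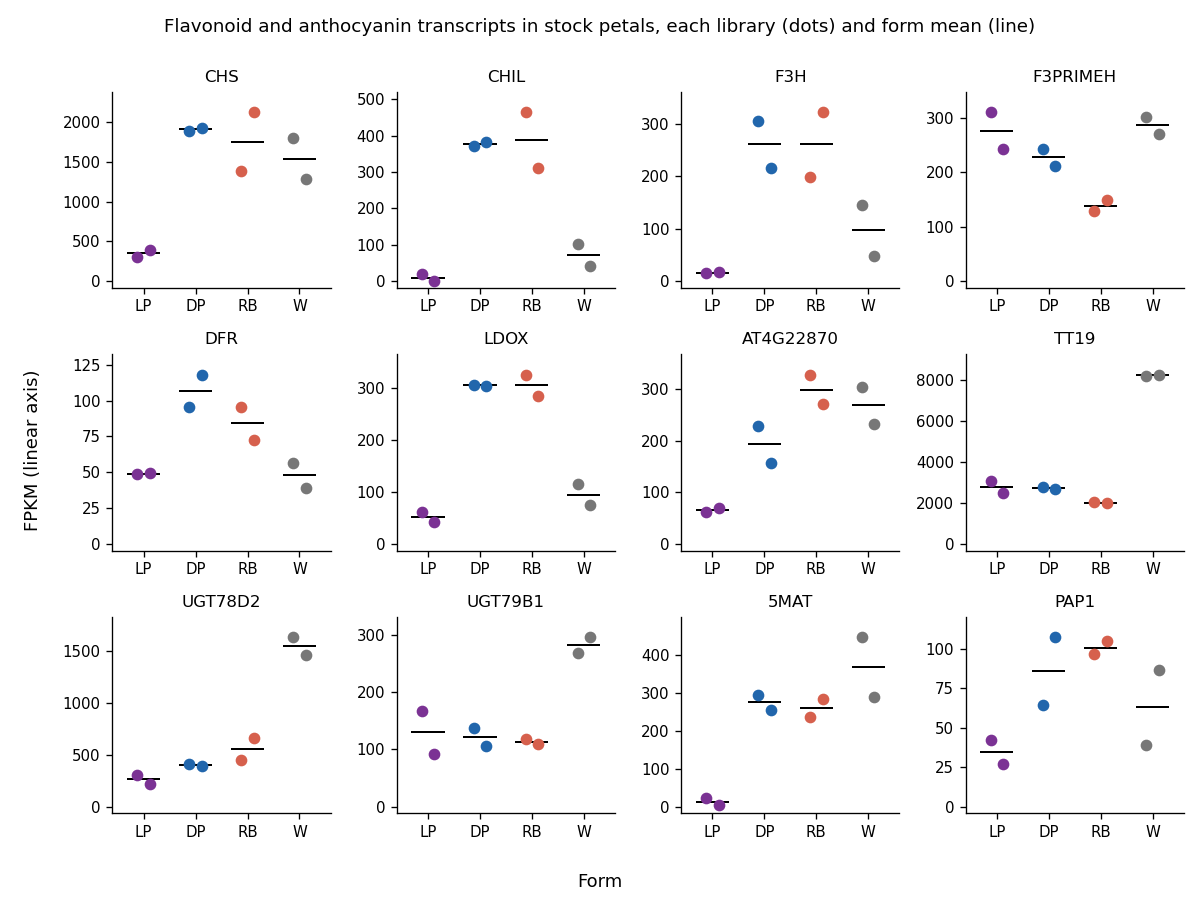
FPKM (y axis, linear, each gene with its own scale) in each library, grouped by form LP, DP, RB and W (x axis). Dots are libraries and lines are form means (n = 2 libraries each). CHS, CHIL, F3H, DFR, LDOX, AT4G22870, UGT78D2, 5MAT and PAP1 have both LP libraries below all 4 DP and RB libraries, while F3PRIMEH, TT19 and UGT79B1 overlap.

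CHS, F3H, LDOX, AT4G22870 and 5MAT kept their sign in each fit that held them. They lost their calls together in the 3 leave-one-out fits without RB library 1, RB library 2 or W library b. F3H and AT4G22870 were not called without LP library 1 or LP library 2 either, CHS not without LP library 1, 5MAT not without DP library 1, DP library 2 or W library a, and AT4G22870 not without W library a. LDOX was called in the 5 remaining leave-one-out fits. All 5 genes also lost their calls with a common total without organelle loci (adjusted p 0.171 to 0.198) and without the variance trend (0.1 to 0.187), and AT4G22870 lost its call in both voom fits (0.121 and 0.301), where F3H kept it. The common total still held AT3G08520, the locus that dominates DP library 1 and the W libraries. CHS, LDOX and 5MAT had no recovered reads and were in neither voom fit. With a pseudocount of 0.1 F3H, AT4G22870 and 5MAT were not called. The leave-one-out differences were -2.60 to -2.19 for CHS, -4.11 to -3.76 for F3H, -2.86 to -2.29 for LDOX, -1.97 to -1.70 for AT4G22870 and -5.70 to -3.51 for 5MAT. In bulk petals, fewer cells with a transcript and less of it per cell cannot be told apart.

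The flavonol branch, which turns dihydroflavonols into colourless flavonols, was low in all 3 forms and gave no call. Of its 9 genes 5 were tested, 0 were called, and the median difference was -0.48 beside 0.05 over all loci. UGT78D1, the flavonol rhamnosyltransferase, was its most abundant member in LP, DP and RB, with 28.6 ± 15.7 FPKM in LP, 39.3 ± 17.9 in DP and 62.4 ± 7.34 in RB (SD, n = 2 each). The proanthocyanidin list had 2 tested genes of 7 and 0 calls.

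None of the 9 known activators of the anthocyanin genes was called in LP. PAP1, PAP2 and MYB113 had an unadjusted limma p under 0.05 (0.0105, 0.0171 and 0.0332), as did 1113 of all 13088 loci. Both LP libraries lay below all 4 DP and RB libraries in 2 of the 9, beside 3.5% of all loci. Their median difference was -1.24, and 7 of the 9 were negative. PAP1 (AT1G56650), the MYB factor that drives anthocyanin genes in Arabidopsis, had 42.4 and 26.8 FPKM in LP, 64.2 and 107 in DP and 96.5 and 105 in RB. LP lay below all 4 other libraries, and the difference was -1.41 ± 0.42 SE (adjusted p = 0.353). PAP2, a MYB factor close to PAP1, had 0 and 12.2 FPKM in LP, 66.6 and 34.2 in DP and 10.9 and 35.6 in RB, which overlap (-3.14 ± 1.04 SE, adjusted p = 0.428). MYB113, of the same family, had 16.0 and 0 FPKM in LP, 48.6 and 20.9 in DP and 16.1 and 34.6 in RB. LP lay below all 4 others, though LP library 1 was close to RB library 1 (-2.79 ± 1.08 SE, adjusted p = 0.522). The 4 MYB factors PAP1, PAP2, MYB113 and MYB114 are close copies in Arabidopsis, so reads of a stock gene may be shared among them. The bHLH partners were scarcely covered: TT8 was listed at 0 in both LP libraries and had 3.99 and 0 FPKM in DP and 5.19 and 0 in RB, and EGL3 had 14.1 and 5.19 FPKM in LP, 3.55 and 6.46 in DP and 4.61 and 0 in RB. The WD40 gene TTG1 had 0 and 3.86 FPKM in LP, 0 and 6.34 in DP and 0 and 0 in RB. At this depth no difference in these partners was detectable.

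Of the 11 repressors of the pathway 9 were tested and 0 were called, with 4 differences positive and 3 negative. The median difference was 0, set by TRY and LBD39. Both were at 0 in every LP, DP and RB library and tested only through W, so they could not differ. MYBL2, a single-repeat MYB that represses anthocyanin genes in Arabidopsis, was the best measured, with 66.0 and 48.6 FPKM in LP, 58.3 and 53.8 in DP and 54.6 and 59.4 in RB. The forms overlap, with a difference of 0.00 ± 0.32 SE. In the light signalling list, which holds regulators upstream of these factors, 15 of 17 genes were tested and 0 were called. HYH, a bZIP factor that acts with HY5 in light responses, had 18.5 and 20.5 FPKM in LP and 28.1 and 23.8 in DP. It was listed at 0 in both RB libraries and rose in DP from RB (limma adjusted p = 0.0427). A 0 in RB allows up to 17.2 and 18.9 FPKM at a typical locus, and the worth of 1 HYH read was not recovered.

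**Figure D3:**
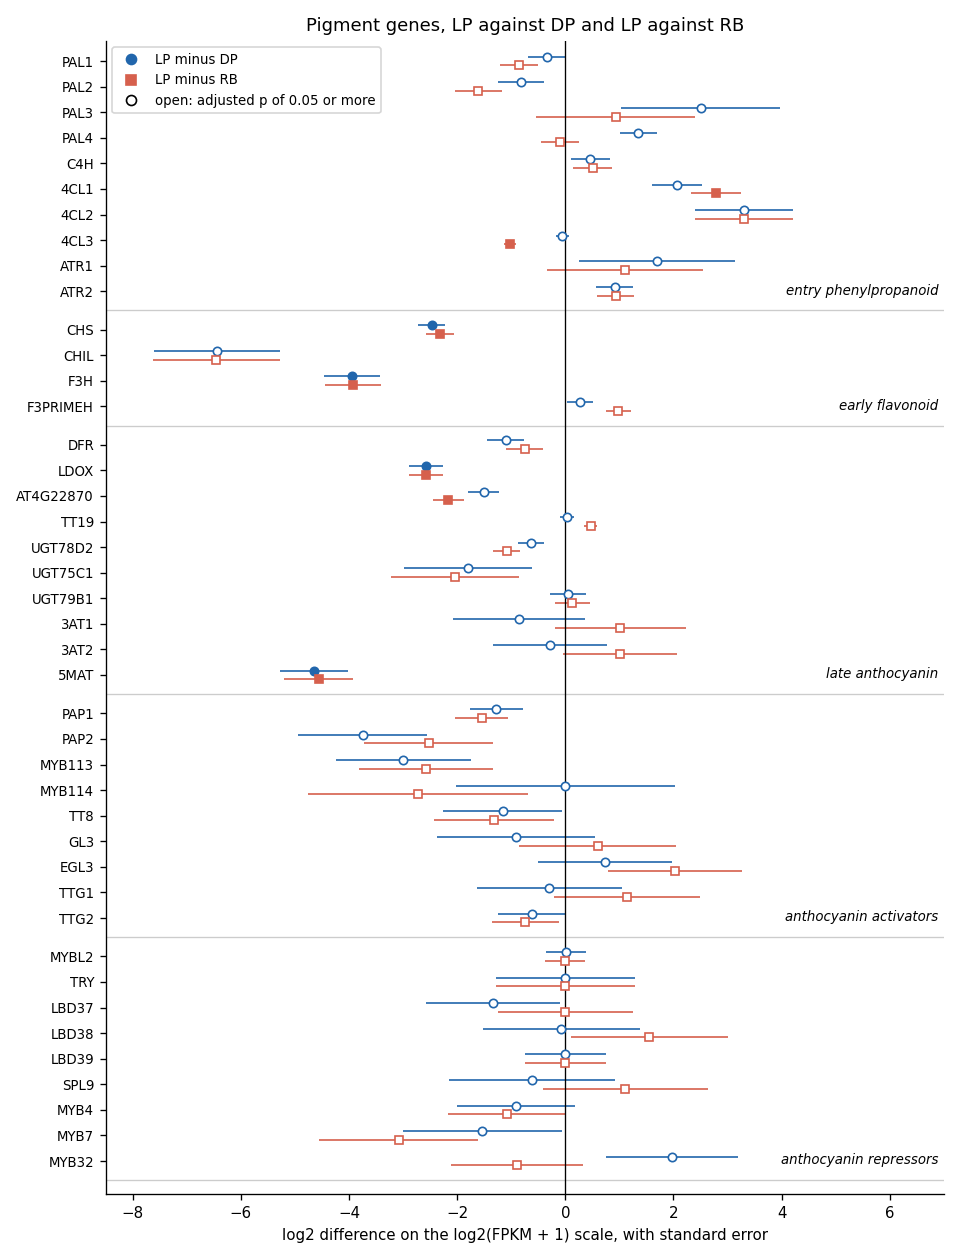
The log2 difference on the log2(FPKM + 1) scale (x axis) of each tested gene (y axis) of the entry phenylpropanoid, early flavonoid, late anthocyanin, anthocyanin activator and anthocyanin repressor lists. Flavonol and carotenoid genes are not shown. LP minus DP is drawn as blue circles and LP minus RB as red squares, with bars of 1 standard error from the limma fit. Filled symbols are called at an adjusted p under 0.05: CHS, F3H, LDOX and 5MAT are filled on the negative side in both pairs, AT4G22870 and 4CL3 are filled on that side from RB, and 4CL1 is filled on the positive side from RB.

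The entry of the pathway, shared with lignin, gave no call against DP and RB together in the limma fit on FPKM: 10 of 10 genes were tested, and their median difference was 0.77, with 4 above all DP and RB libraries (7.53% of all loci) and 1 below. 4CL1 (AT1G51680), the 4-coumarate:CoA ligase tied mainly to lignin in Arabidopsis, had 118 and 86.0 FPKM in LP, 24.9 and 21.6 in DP and 9.24 and 20.4 in RB. Both LP libraries were above the rest; the difference of 2.43 ± 0.40 SE missed the threshold (adjusted p = 0.0901), and that from RB alone passed it (2.78 ± 0.46 SE, adjusted p = 0.0477). On recovered reads, voom called 4CL1 higher than the mean of DP and RB, by 1.97 (adjusted p = 0.0322). With the depth from the read steps voom gave 2.37 (adjusted p = 0.00428). In the FPKM fit, LP against DP gave 2.07 (adjusted p = 0.184) and DP against RB 0.71 (adjusted p = 0.598). 4CL2 was listed at 0 in all DP and RB libraries and had 9.78 and 8.11 FPKM in LP, from 4 and 3 reads (adjusted p = 0.228). 4CL3 (AT1G65060), the isoform tied to flavonoids in Arabidopsis, was by far the most abundant of the 3, with 1724 and 1594 FPKM in LP, 1742 and 1701 in DP and 3548 and 3220.3 in RB. The LP and DP ranges overlap and RB was well above both, and 4CL3 fell in LP from RB (-1.03 ± 0.11 SE, adjusted p = 0.0142) and in DP from RB (-0.97 ± 0.11 SE, adjusted p = 0.0224). For LP against DP it was -0.05 ± 0.11 SE (adjusted p = 0.991). PAL2, 1 of 4 phenylalanine ammonia-lyases at the head of the pathway, had 108 and 43.2 FPKM in LP, 118 and 125 in DP and 175 and 253 in RB. It was the only entry gene with LP below all 4 other libraries, and it was not called (-1.21 ± 0.37 SE, adjusted p = 0.388).

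In the sinapate and lignin branch 13 of 14 genes were tested, 2 rose in LP and none fell, with a median difference of 0.81 over the list; on the 4 members with recovered reads the median was -0.43 with voom, where that of all loci was -0.41, and -0.02 with the depth from the read steps. CAD5 (AT4G34230), a cinnamyl alcohol dehydrogenase that makes the monolignols, had 584 and 611 FPKM in LP, 136 and 106 in DP and 116 and 144 in RB. The LP libraries were close to each other and far above the rest, and the difference was 2.25 ± 0.21 SE (adjusted p = 0.0076). It rose from each form, with an adjusted p of 0.019 for DP and 0.0142 for RB. CCOAOMT1 (AT4G34050), the caffeoyl-CoA O-methyltransferase of lignin synthesis, had 2901 and 3748 FPKM in LP, 1261 and 1079.8 in DP and 1286 and 1455 in RB. LP again did not overlap either form, and the difference was 1.38 ± 0.17 SE (adjusted p = 0.0276). Without RB library 1, RB library 2 or W library b the adjusted p of CAD5 and CCOAOMT1 ran from 0.0864 to 0.163, and CCOAOMT1 was called in 1 of the 8 leave-one-out fits only, the one without DP library 1. Both also lost their calls with the common total (adjusted p = 0.0987 for CAD5 and 0.171 for CCOAOMT1) and without the variance trend (0.118 and 0.326), and CCOAOMT1 with a pseudocount of 0.1.

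Of the other genes of the branch, C3H1, CAD4, CCR1, REF1 and CSE also had both LP libraries above all DP and RB libraries, without a call. Together with CAD5 and CCOAOMT1 these make 7 of 13, beside 7.53% of all loci. C3H1, the coumarate 3-hydroxylase step, had 215 and 198 FPKM in LP, 85.1 and 63.3 in DP and 80.4 and 66.4 in RB (1.48 ± 0.25 SE, adjusted p = 0.106). CAD4, the other cinnamyl alcohol dehydrogenase, had 208 and 160.4 FPKM in LP, 52.5 and 51.7 in DP and 143 and 129.5 in RB (1.11 ± 0.24 SE, adjusted p = 0.177). REF1, the aldehyde dehydrogenase that gives sinapate and ferulate, had 53.9 and 62.7 FPKM in LP, 34.3 and 28.5 in DP and 22.3 and 24.5 in RB (1.08 ± 0.41 SE, adjusted p = 0.506). All 3 were high in both LP libraries, and CAD4 was nearer to LP in RB than in DP. UGT84A1, a glucosyltransferase of hydroxycinnamates, had 19.9 and 0 FPKM in LP, 112 and 75.4 in DP and 83.9 and 92.3 in RB, below all 4 but not called (-4.31 ± 1.03 SE, adjusted p = 0.228).

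**Figure D4:**
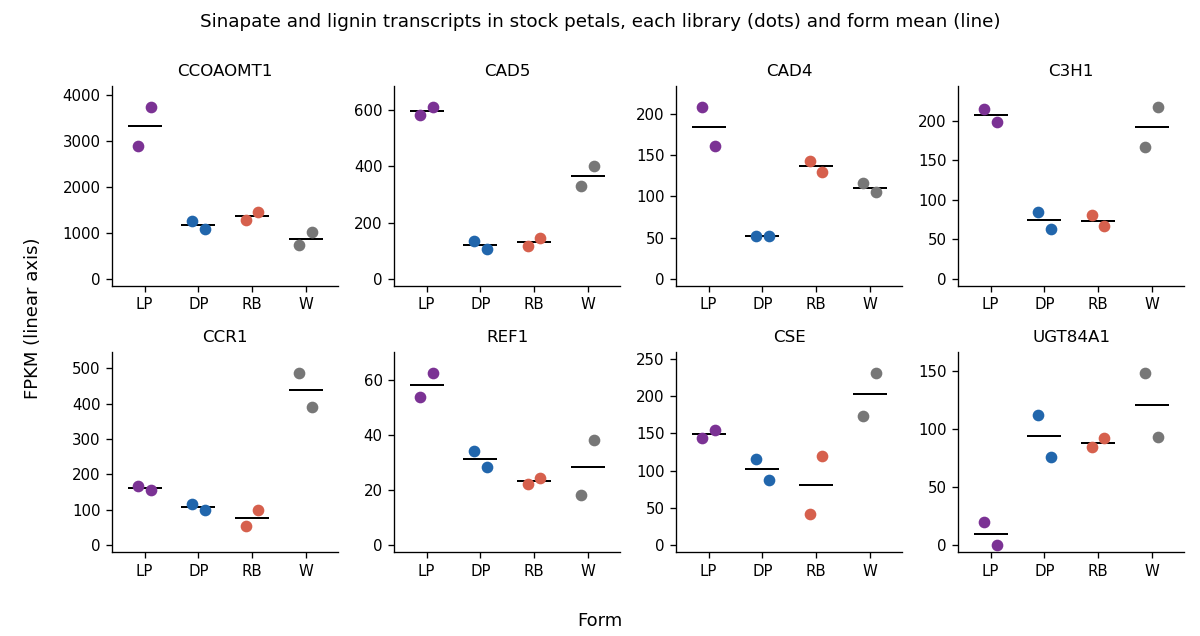
FPKM (y axis, linear, each gene with its own scale) of 8 sinapate and lignin genes in each library, grouped by form LP, DP, RB and W (x axis). Dots are libraries and lines are form means (n = 2 libraries each). CCOAOMT1, CAD5, CAD4, C3H1, CCR1, REF1 and CSE have both LP libraries above all 4 DP and RB libraries, of which CCOAOMT1 and CAD5 were called, and UGT84A1 has both below.

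Outside the phenylpropanoid lists, GASA1, LTP3 and PSAH2 were called. GASA1 (AT1G75750), a small cysteine-rich peptide of a gibberellin-regulated family, had 2629.9 and 2013 FPKM in LP, 517 and 578 in DP and 475 and 368 in RB. LP stood well clear of both forms and rose by 2.26 ± 0.16 SE on the log2 scale (adjusted p = 0.00637), from DP by 2.07 and from RB by 2.46 (adjusted p = 0.0121 and 0.00412). LTP3 (AT5G59320), a lipid transfer protein of the cell surface, had 432 and 567 FPKM in LP, 137 and 139.5 in DP and 72.6 and 136 in RB. LP was above all 4 others with a difference of 2.07 ± 0.28 SE (adjusted p = 0.0334), called from RB (adjusted p = 0.0243) and not from DP (adjusted p = 0.107); DP against RB was 0.47 (adjusted p = 0.599). AT5G59330, next to LTP3 in the numbering and named in no list, had 447 and 537 FPKM in LP, 146 and 183 in DP and 40.3 and 42.0 in RB, with LP above both forms and DP above RB (2.56 ± 0.21 SE, adjusted p = 0.00637). How reads were divided between neighbouring LTP loci is not given in the sources used here, and LTP4 had 50.4 and 66.8 FPKM in LP, 0 and 34.4 in DP and 20.4 and 65.3 in RB, which overlap. Of the 4 tested genes of the lipid transfer list, 3 had a positive difference and 1 a negative one (-1.26). The summed list gave 621 and 823 FPKM in LP, 319 and 411 in DP and 578 and 1107 in RB, where LP and RB overlap.

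PSAH2 (AT1G52230), subunit H of photosystem I, was listed at 0 in both LP libraries and had 56.7 and 48.1 FPKM in DP and 56.5 and 101 in RB. It was the only call among the 33 tested photosynthesis genes (limma adjusted p = 0.00637). No fold is given, since it would depend on the added 1, and the worth of 1 read of this locus was not recovered. The median difference of the photosynthesis list was 0, set by LHCB1.1, LHCB2.2, PETE2 and RBCS3B. These were at 0 in every LP, DP and RB library and tested only through W, so they could not differ. The summed photosynthesis list gave 1088 and 1722 FPKM in LP, 1518 and 1508 in DP and 1035 and 1199 in RB, which overlap. Without RB library 1, RB library 2 or W library b the adjusted p of GASA1, LTP3 and PSAH2 ran from 0.0864 to 0.107, and LTP3 was called in none of the 8 leave-one-out fits, where its adjusted p ran from 0.0528 to 0.142. With the common total and without the variance trend PSAH2 kept its call, and GASA1 (adjusted p = 0.171 and 0.118) and LTP3 (0.171 and 0.172) lost theirs, LTP3 also with a pseudocount of 0.1.

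The other 24 calls, 8 higher and 16 lower, stand in no list, and 3 are given by identifier, AT5G59330 above and the following 2. AT1G69870 was listed at 0 in both LP libraries and had 36.4 and 52.4 FPKM in DP and 426 and 384 in RB, and it had the lowest adjusted p of the comparison (0.00225). AT3G42830 had 29.4 and 65.0 FPKM in LP and was listed at 0 in all DP and RB libraries (adjusted p = 0.0235). Of the 34 calls, 11 higher and 21 lower had both LP libraries beyond all 4 DP and RB libraries, 6 of the lower were at 0 in both LP libraries, and 2 of the higher were at 0 in all of DP and RB. The 2 other calls overlap 1 form: a locus at 0 in RB alone, with near levels in LP and DP, and a plastid locus at 0 in LP and DP alike. Of the 34, 28 were also called with the same sign in LP against RB and 20 in LP against DP, comparisons that share the LP libraries.

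BPE (AT1G59640), a bHLH factor that limits petal cell expansion in Arabidopsis, had the largest positive difference of the listed genes, with 274 and 145 FPKM in LP, 6.19 and 7.38 in DP and 8.09 and 0 in RB. LP was far above the rest, and the difference of 5.37 ± 0.81 SE gave an adjusted p of 0.0631 against both forms, 0.0376 against RB alone and 0.151 against DP alone. Behind these values stood 67 and 32 recovered reads in LP, 1 and 2 in DP and 1 and 0 in RB. Voom on these reads called BPE higher than the mean of DP and RB, by 4.20 (adjusted p = 6.43e-05). With the depth from the read steps voom gave 4.61 (adjusted p = 4.51e-05). The W libraries had 203 and 241 FPKM. For GASA1 the W libraries had 4297 and 3896 FPKM, for LTP3 402 and 392, for CAD5 329.9 and 403 and for 4CL1 128 and 103, with no comparison made.

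Vacuolar genes, which set the acidity and transport that colour depends on, were tested in 11 of 11 cases, with 0 calls against both forms by limma on FPKM and a median of -0.11, which was 0.08 with a common total without organelle loci. With quantile scaling AVP1 was called lower (-1.26, adjusted p = 0.0249). AVP1 (AT1G15690), the vacuolar proton pyrophosphatase, had 838 and 903 FPKM in LP, 1379 and 1502 in DP and 1984 and 2942 in RB. The 3 forms do not overlap, with LP lowest and RB highest; the difference from both was -1.10 ± 0.18 SE (adjusted p = 0.0882), and AVP1 fell in LP from RB (-1.47 ± 0.21 SE, adjusted p = 0.0246). The adjusted p was 0.282 for LP against DP and 0.155 for DP against RB. ABCC1, a vacuolar ABC transporter that moves glutathione conjugates, had 121 and 86.3 FPKM in LP, 238 and 230.2 in DP and 431 and 328 in RB, the same order, and fell in LP from RB (-1.87 ± 0.31 SE, adjusted p = 0.045), with an adjusted p of 0.247 for LP against DP and 0.403 for DP against RB. ABCC2 showed no such order, with 118 and 149 FPKM in LP, 107 and 130.1 in DP and 134 and 146 in RB. Among 14 aquaporins, membrane water channels that take part in petal expansion, PIP2-7 had 14362 and 11544 FPKM in LP, 17399.7 and 14829 in DP and 28945 and 39695 in RB. It fell in LP from RB (-1.40, adjusted p = 0.0196) and in DP from RB (-1.08, adjusted p = 0.0451), while LP against DP was -0.32 ± 0.17 SE (adjusted p = 0.746).

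Carotenoids, the yellow pigments of plastids, gave 0 calls by limma on FPKM among 19 tested of 21 genes, with a median of 0.52; on the 12 genes with recovered reads the median was -0.27 with voom, where that of all loci was -0.41, and 0.16 with the depth from the read steps. CCD1 (AT3G63520), a carotenoid cleavage dioxygenase, had 641 and 636 FPKM in LP, 244 and 187 in DP and 609 and 630.0 in RB. DP was the low form: CCD1 rose in LP from DP (1.58 ± 0.20 SE, adjusted p = 0.0353) and fell in DP from RB (-1.53 ± 0.20 SE, adjusted p = 0.0277), and LP against RB was 0.04 (adjusted p = 1). CCD4, the cleavage enzyme that keeps chrysanthemum petals white, had 124 and 166 FPKM in LP, 66.1 and 52.9 in DP and 90.4 and 129 in RB and was not called (adjusted p = 0.667).

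DP and RB, the forms LP was set against, differed from each other at 110 loci (0.84%), of which 91 rose in DP (0.695%) and 19 fell (0.145%). No locus was called in this pair without LP library 1 or LP library 2, 1 without W library b, and 884 without DP library 1. Of the 5 tested defence genes 2 rose in DP. OSM34, an osmotin-like protein, was listed at 0 in LP and RB and had 179 and 166 FPKM in DP; it fell in LP from DP (adjusted p = 0.0275) and rose in DP from RB (adjusted p = 0.0224). PR4, a pathogenesis-related protein, was at 0 in LP and RB and had 206 and 203 FPKM in DP (adjusted p of DP from RB = 0.037), and PR5 had 5.54 and 0 FPKM in LP, 470.1 and 424 in DP and 0 and 23.9 in RB. Voom on recovered reads called PR5 lower in LP than the mean of DP and RB (-4.32, adjusted p = 0.00507). With the depth from the read steps voom called it too (adjusted p = 0.0215). The PR5 reads were 1 and 0 in LP, 56 and 84 in DP and 0 and 2 in RB, so LP overlaps RB. SUC1, a sucrose transporter, was likewise at 0 in LP and RB and had 52.5 and 59.2 FPKM in DP (adjusted p of DP from RB = 0.0451). RB was at 0 for PSBX, a photosystem II subunit, which had 20.1 and 66.8 FPKM in LP and 15.3 and 25.8 in DP. PSBX rose in both from RB (limma adjusted p = 0.0235 and 0.0451). A PSBX read stood for 6.60 and 7.27 FPKM in RB, and a 0 allows up to 3 reads. The 0 in RB therefore allows a level about that of LP library 1 or DP library 1. The 2 RB libraries are the shallowest of the 6, as given above.

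Genes of other petal functions gave no call against DP and RB together in the limma fit on FPKM. Among those lists were petal cuticle (12 tested of 17), jasmonate (14 of 22), ethylene (12 of 15), expansins (8 of 11), xyloglucan remodelling (11 of 17), the clock (12 of 15) and sugar transport and cleavage (14 of 14). Voom on recovered reads called LACS1 (cuticle), JAZ6 (jasmonate) and CWINV1 (sugar) lower than the mean of DP and RB (adjusted p = 0.0467, 0.0415 and 0.00548). With the depth from the read steps voom called CWINV1 too (0.0233). CWINV1 had 0 and 0 reads in LP, 20 and 26 in DP and 0 and 1 in RB. JAZ6 had 0 and 1 reads in LP, 10 and 12 in DP and 1 and 2 in RB. In both, DP was far above LP and RB. LACS1 had 0 and 0 reads in LP, 2 and 5 in DP and 1 and 2 in RB. Fits that left out 1 library called up to 2 genes of a list among these. VI2, a vacuolar invertase, had 34.0 and 47.0 FPKM in LP, 106 and 89.9 in DP and 79.2 and 129 in RB, with LP below both forms (-1.29 ± 0.29 SE, adjusted p = 0.208). SUS1, sucrose synthase, had 1606 and 1571 FPKM in LP, 2179 and 2261 in DP and 1873 and 2216 in RB, also below both (-0.42 ± 0.11 SE, adjusted p = 0.249). MYB57, a MYB factor of jasmonate-dependent stamen growth in Arabidopsis, had 175 and 201 FPKM in LP, 115 and 111 in DP and 117 and 121 in RB, above both (0.69 ± 0.22 SE, adjusted p = 0.403). None of the 12 housekeeping genes was at 0 in any library or called, and their median difference was 0.07.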

How the data were processed

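FPKM values of stock petals were used as deposited by the authors; the submitters' processing notes name TopHat, Cufflinks, Cuffdiff and DESeq without versions, and the series states that Arabidopsis served as the reference. Groups follow the form codes in the titles. The main test was limma 3.58.1, run in R 4.3.3 on log2(FPKM + 1) for the 13088 loci with a form mean of at least 1 FPKM, with LP, DP, RB and W (8 libraries) in 1 fit, an intensity trend, 4 residual degrees of freedom and Benjamini-Hochberg adjustment over all tested loci; calls are at an adjusted p under 0.05. Adding 1 shrinks the differences of low loci.

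The full depth is unknown. Low FPKM values fall on steps of 1 read: 97.2% came within 0.1 of an integer, where 20% would do so without steps (98.0% and 17.9% in simulated stepped and blurred values). Reads could be recovered for 6838 of 9480 loci seen in at least 3 libraries, 9191 to 45173 reads per library, and were fitted with voom as an alternative. On simulated reads of 5901 loci the main test called 12% of 4-fold and 76% of 16-fold changes in LP, with 4 false calls. The changed loci were drawn only from those above a minimum mean of reads, and all forms were given the same spread. In the data the chi-square per degree of freedom was 8.08 in LP, 1.17 in DP and 1.45 in RB, so these rates may not hold.

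The 40 gene lists (452 loci, 347 tested) and the compared forms were chosen with earlier results of these data known. Named are many but not all of the tested pigment and phenylpropanoid genes, and the genes of the other lists called against DP and RB together. Of the calls in no list only some are named, and not always the most extreme. Other listed genes in the text were chosen after their values were seen. The files do not pair identifiers with names, so names come from those lists and no sequence is shown. Alternatives changed the pseudocount, filter, scaling, samples, variance model and unit, or left out each library.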

Additional observations from a re-analysis of the deposited data

How the results depend on the processing

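The voom fits held 10 of the 34 called loci, and each of the 34 kept its sign in each fit that held it. The medians of some lists did not, as given beside them for sinapate and lignin, carotenoid and vacuolar genes and, for example, in light signalling (0.14, and -0.14 with quantile scaling). The number of calls did not hold. Against DP and RB together, 12 loci were called higher and 22 lower. The alternatives gave 6 higher and 16 lower with a pseudocount of 0.1, 1 higher and 3 lower with a common total without organelle loci (median of all loci 0.24), 4 and 13 with only the 6 LP, DP and RB libraries, 2 and 3 without the variance trend, 9 and 32 with voom on recovered reads, and 18 and 14 with voom and the depth from the read steps, added after seeing the data. CHS, F3H, LDOX, CAD5, GASA1 and PSAH2 kept their calls with the 6 libraries, and AT4G22870, 5MAT, CCOAOMT1 and LTP3 did not. Leaving out 1 library gave 0 to 420 higher and 0 to 725 lower loci. The same-numbered libraries of different forms showed no shared deviation over all tested loci (correlations -0.02, 0.00 and 0.00). Many of these loci hold few reads, and counting error can hide a shared deviation, so whether the numbers pair the libraries is not known. The replicate block over the 6 libraries gave 0 higher and 0 lower loci, with 889 at an unadjusted p under 0.05 and a lowest adjusted p of 0.0548. It gave 5, 0 and 1 loci for LP against RB, LP against DP and DP against RB.

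LP against RB, with 95 calls, gave 182 with a pseudocount of 0.1, 30 with the common total, 12 with 6 libraries, 38 and 12 with voom on recovered reads and with the depth from the steps, and 2 to 559 leaving out 1 library. LP against DP, with 30 calls, gave 15, 0, 2, 92, 69 and 0 to 817 in the same order, and 84 without the trend. DP against RB, with 110 calls, gave 184, 16, 3, 25, 29 and 0 to 884 in the same order, 66 with quantile scaling and 266 without the trend. The cause of these moves was not tested. Voom on recovered reads shifted the median of all loci to -0.41. The residual degrees of freedom were few: 4 in the main fit, 3 with 1 library left out or with only the 6 libraries, and 2 with the replicate block. This limits the adjusted p of those fits.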
